A study of Rattus norvegicus with 42 samples.

Results

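The TSS peaks described here were high in soleus on the first day of reloading and back near the control level by the third. They number 575 of the 9971 peaks in the deposited table (5.77%). They were picked from nuclear peaks by their level in CPM, which is raw tags per 1000000 peak tags of the library. The ratio of a phase is its group mean plus 1 CPM, divided by the soleus control mean plus 1 CPM. A burst peak had a ratio of at least 3 at R1 and of under 1.5 at both R3 and R7, and its soleus control mean plus 1 lay between 0.25 and 4 times that of EDL. Of 1231 peaks with a ratio of at least 3 at R1, 595 were under 1.5 at R3 and at R7, and 575 of these also met the limit on the muscles. The levels at soleus control, R1, R3 and R7 and the EDL control therefore chose these peaks, and their differences are given below as a description, with no test.

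Both muscles were taken from 21 mature Wistar rats, 3 in each of 7 groups, which gave 42 CAGE libraries from total RNA. Controls moved freely, D1, D3 and D7 rats hung by the tail for 1, 3 or 7 days so that the hindlimbs bore no load, and R1, R3 and R7 rats spent 7 days unloaded and then 1, 3 or 7 days moving around the cage. Animals of all groups were killed under ether. Each group is a set of different animals, so the time course does not follow single rats. The RNA came from the frozen muscle of 1 side, and in such bulk RNA fewer cells of a type and less RNA per cell cannot be told apart.

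CAGE reads the capped 5′ ends of RNA, so a tag marks where a transcript begins (a CTSS, or CAGE tag start site), and neighbouring CTSS are joined into a TSS peak that stands for a promoter. The soleus is a slow postural muscle that loses mass quickly when it bears no weight, and the extensor digitorum longus (EDL) is a fast muscle that is less affected. Return to loading is known to strain the weakened soleus fibers and to bring in stress responses, inflammatory cells and regrowth, within which early response promoters switch on for hours to days.

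Positions are those of Rnor_6.0 with the strand in words. The files do not pair peaks with genes and no annotation of this build was used here, so peaks are given by position and the muscle labels were not checked with marker genes. With the labels taken as given, 175 peaks were higher in every soleus library than in every EDL library and 273 were higher in every EDL library. These counts cannot show which muscle is which. Burst peaks among them numbered 3 and 0, and the limit on the muscles favours such low numbers. Libraries held 3637762 to 21116882 peak tags in soleus and 1696341 to 22116123 in EDL. The highest correlation between any pair of libraries was 0.983 over the peaks. The R1 library of animal U18 stood apart from the other R1 soleus libraries, with a higher level in most burst peaks. Lane 1 held the controls and the soleus D1 library of animal U24. Lane 4 held the R1 samples of either muscle together with the soleus R3 library of animal U4. No lane held both R1 and control libraries, so a direct comparison of R1 with control also compares lanes.

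The burst peaks together took 0.529% ± 0.0714 (SD, n = 3) of the peak tags in control soleus. They took 0.537% ± 0.0745 at D1, 0.596% ± 0.0451 at D3 and 0.710% ± 0.126 at D7. At R1 their share was 6.08% in animal U18, 2.56% in U20 and 2.51% in U21, with a mean of 3.72% ± 2.05. It was 0.562% ± 0.0364 at R3 and 0.558% ± 0.0300 at R7. In EDL the share was between 0.326% ± 0.0717 in controls and 0.572% ± 0.207 at D7, and at R1 it was 0.428% ± 0.201. The median level of the burst peaks was 25.3 CPM in U18, 12.1 in U20 and 11.3 in U21, against 1.51 to 1.67 CPM in the 3 soleus controls, 1.68 to 1.82 at R3 and 1.39 to 1.76 at R7. The 3 R1 soleus libraries thus stood above the other 39 libraries, in which no median was over 1.92 CPM. The R3 library of U4, sequenced in lane 4 with the R1 libraries, had a median of 1.68 CPM, and 0 of the 575 peaks had a ratio of at least 3 in it. U4 is among the 3 R3 libraries whose mean the rule kept low, so its values say nothing on the lane.

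**Figure D1:**
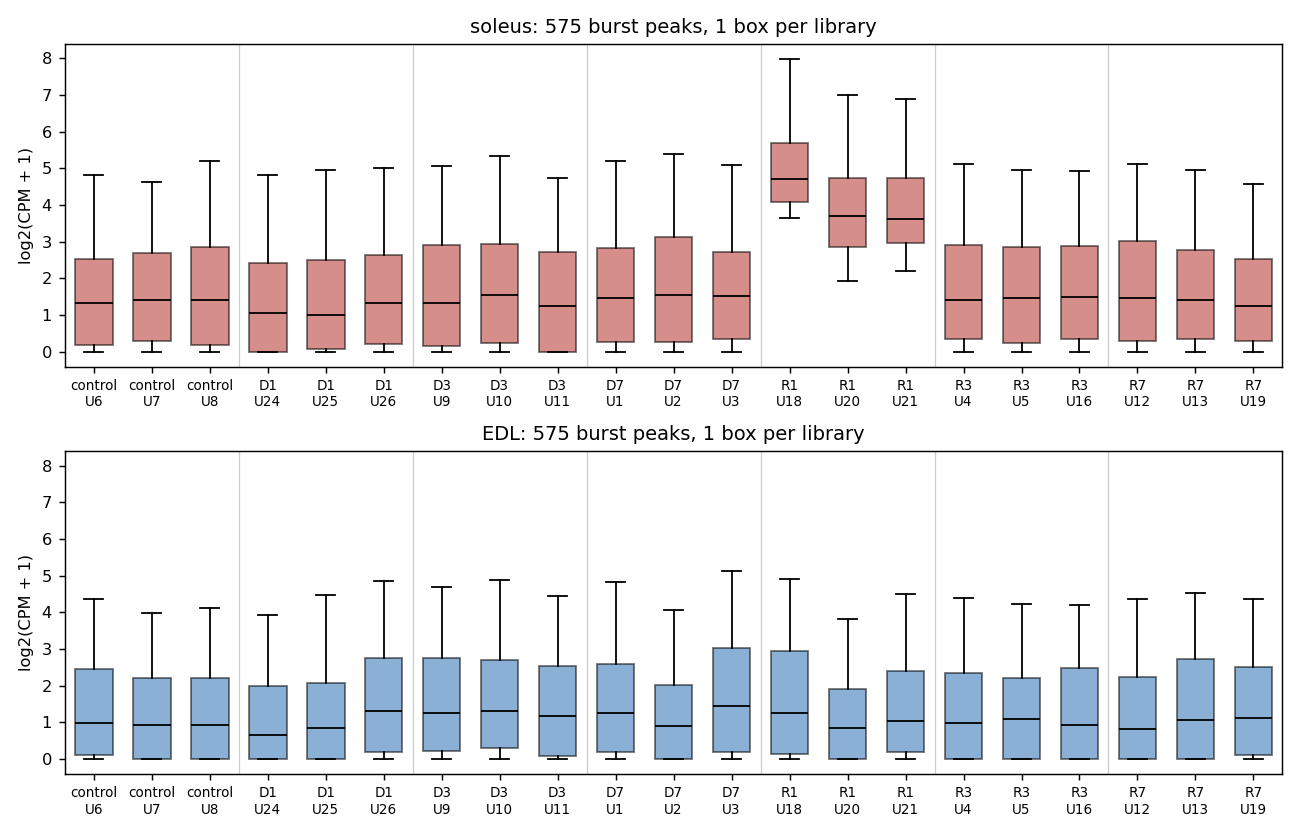
Levels of the 575 burst peaks in every library, soleus above and EDL below, as log2(CPM + 1); a box spans the quartiles with the median as a line, and whiskers reach from the 5th to the 95th percentile. The 3 soleus R1 boxes stand above all others, with the medians at 25.3, 12.1 and 11.3 CPM, and the EDL R1 boxes of the same animals do not.

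The median ratio at R1 was 6.05 and the ratios reached from 3.00 to 82.9. Of the burst peaks, 236 had a ratio from 3 to under 5, 177 from 5 to under 10, 144 from 10 to under 30 and 18 of 30 or more. The median ratio of all peaks at R1 was 1.22 on this scale, which is 0.29 as a log2. With TMM-scaled library totals that median moved to −0.04 as a log2, the median ratio of the 575 peaks was 4.68, the lowest was 2.32, and 423 of them were at 3 or more. Scaling therefore moved the size of the ratios and kept every burst peak above its control mean.

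Most burst peaks started from a low level. The control mean was under 1 CPM in 232 of them (40.3%), against 6.21% of all peaks, and 10 CPM or more in 90 (15.7%), against 53.2% of all peaks. The remaining 253 lay from 1 to 10 CPM. The control mean is the divisor of the ratio that chose the peaks, which favours low controls. A peak also enters the table by reaching 10 TPM in any 1 library, R1 included. The excess of low controls is therefore a description and no independent result. The median R1 level of the burst peaks was 10.7 CPM for the low class, 17.6 CPM for the middle class and 78.0 CPM for the high class, and the median ratios were 10.3, 4.07 and 4.17. In 69 burst peaks all 3 soleus controls had 0 tags, and in 57 all 6 controls of both muscles had 0. In 50 of them at most 3 tags were found in total over the 18 soleus libraries outside R1. A ratio with 1 CPM added depends on that addition in such peaks and is not a fold change. At R1 the median level of the burst peaks, 16.6 CPM over the group means, was close to the 15.0 CPM of all peaks.

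**Figure D2:**
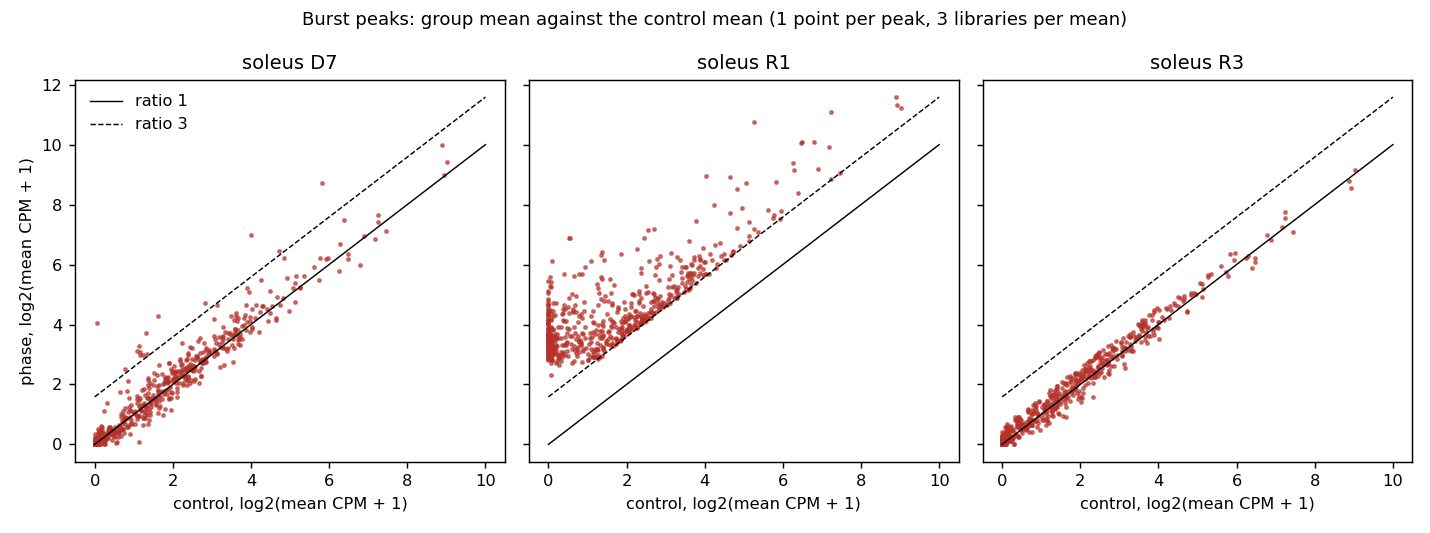
Group means of the 575 burst peaks at D7, R1 and R3 in soleus (vertical axes) against the soleus control mean (horizontal axis), both as log2(mean CPM + 1), 1 point per peak and 3 libraries per mean. The solid line marks a ratio of 1 and the dashed line a ratio of 3; all points of R1 lie on or above the dashed line, as the choice of the peaks fixes, and those of R3 follow the solid line.

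The 3 reloaded animals differed in size. The median ratio to the control mean was 9.73 in U18, 3.94 in U20 and 4.16 in U21. U18 was the highest of the 3 in 526 burst peaks (91.5%), U20 in 35 and U21 in 14. The ratio was at least 3 in all 3 animals for 344 peaks (59.8%), in 2 animals for 129 and in a single animal for 102, of which 93 reached it in U18, 8 in U20 and 1 in U21. Without U18 the median ratio over the same 575 peaks was 4.06, and 434 (75.5%) were still at 3 or more. Selected anew without U18, the rule found 442 peaks, 434 of them among the 575. The lowest R1 library was above all 3 controls in 573 burst peaks and above all 18 other soleus libraries in 535 (93.0%). The choice of the peaks bears on these counts through the R1 mean and the limits at R3 and R7. The shares over all peaks were not counted, so these counts are no result about the burst peaks.

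**Figure D3:**
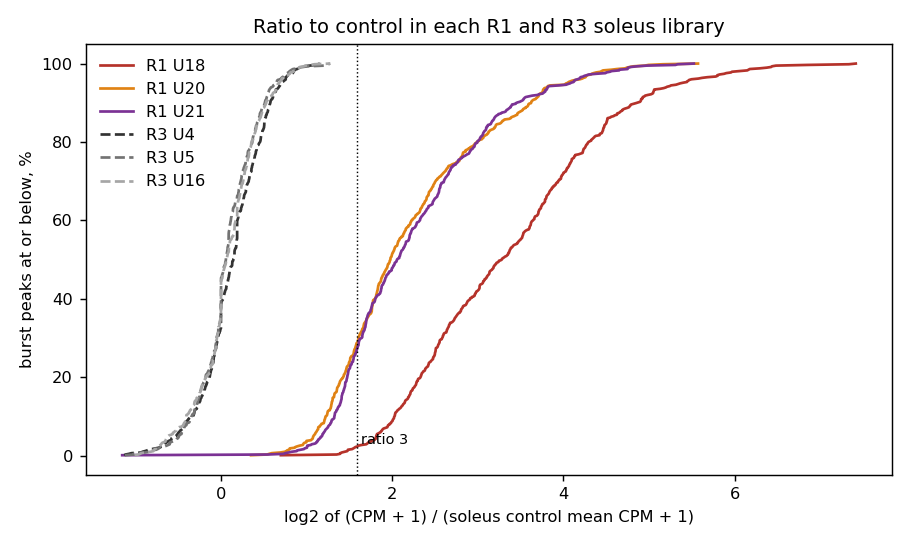
Cumulative share of the 575 burst peaks, in percent, at or below a given log2 ratio of (CPM + 1) to the soleus control mean plus 1, 1 line per R1 and R3 soleus library; the dotted line marks a ratio of 3. The line of U18 lies to the right of those of U20 and U21 (median ratios 9.73, 3.94 and 4.16), and the 3 R3 lines lie around a ratio of 1, as the limit on the R3 mean largely fixes.

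The highest R1 level was that of a peak on the plus strand at chr12:36638354-36638891. It had 570, 422 and 426 CPM in the controls and 5211, 1868 and 2110 CPM at R1, so every R1 library was at least 3 times above every control. Its means were 1109 CPM at D1, 1190 at D3 and 1014 at D7, also above the control mean of 473, and 439 at R3 and 377 at R7. The second, on the plus strand at chr4:56710804-56711645, had 592, 317 and 553 CPM in controls and 4718, 1809 and 1192 at R1. In disuse its means were 169 CPM at D1, 240 at D3 and 501 at D7.

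The third, on the plus strand at chr3:55909724-55911280, had 495, 382 and 684 CPM in controls and 3606, 1955 and 1575 at R1. It returned to 569 ± 257 CPM at R3 and 574 ± 127 at R7. The fourth, on the plus strand at chr9:61691153-61691713, had 139, 151 and 161 CPM in controls and group means from 149 to 214 CPM in the other soleus groups. It had 3378, 1820 and 1379 CPM at R1, a ratio of 14.5. The fifth, on the plus strand at chr5:57028361-57029037, had 32.2, 39.8 and 40.4 CPM in controls and 3333, 848 and 968 at R1. Its other soleus group means were between 36.4 and 46.9 CPM, its ratio was 44.6, and it was the only peak both among the 10 highest R1 levels and among the 10 largest ratios.

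The next 5 had R1 means from 664 to 1091 CPM. They were at chr8:44989214-44989438, chr1:199941031-199941501 and chr8:130416244-130417459 on the plus strand, and at chr6:34554923-34555396 and chr2:257405662-257406117 on the minus strand, with ratios of 9.88, 12.2, 12.01, 6.77 and 8.72. In each of the 5, U18 was the highest R1 library, and the lowest R1 library (322 CPM in the chr2 peak to 684 CPM in the second chr8 peak) was above every control library.

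**Figure D4:**
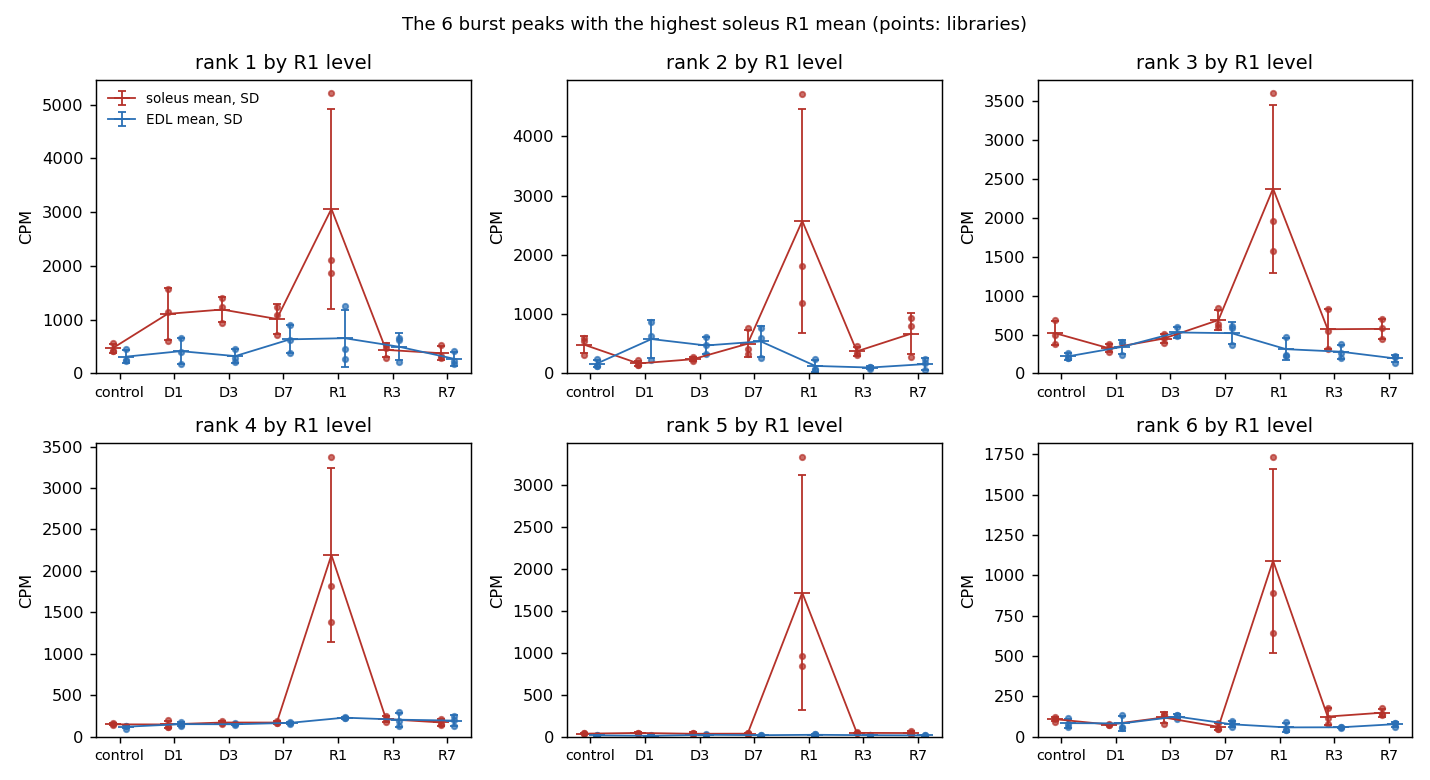
The 6 burst peaks with the highest soleus R1 mean, in CPM on linear axes that start at 0 and differ between panels, by phase; small points are libraries, and the joined marks with bars are group means and SD of 3 animals, soleus in red and EDL in blue. The soleus R1 mean is the highest in all 6 panels. The panel of rank 1 also shows soleus D1, D3 and D7 means of 1014 to 1190 CPM, and that of rank 2 EDL means of 580, 472 and 541 CPM at D1, D3 and D7 against 127 CPM at R1.

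Apart from the chr5 peak above, the 10 largest ratios belonged to peaks with control means under 1 CPM. The peak on the minus strand at chr15:28315331-28315697 had 0.460, 0 and 0.831 CPM in controls and 230, 67.0 and 55.7 CPM at R1. Its means were 0.479 CPM at R3 and 0.318 CPM in EDL at R1, and its ratio of 82.9 was the largest. The peak on the minus strand at chr7:115910428-115910589 had 0.658, 0.358 and 0.415 CPM in controls and 251, 38.0 and 58.6 at R1, a ratio of 79.1. On the minus strand at chr7:121705508-121705744 the values were 0.0658, 0 and 0.138 CPM in controls and 122, 33.1 and 48.1 CPM at R1, a ratio of 64.4.

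The peak on the minus strand at chr3:149800130-149800320 had 0 tags in every soleus library of the controls, D1, D3, D7 and R7 and in all EDL libraries, and 82.0, 22.6 and 22.3 CPM at R1. At R3 it was at 0.140, 0 and 0.140 CPM. The other 5 among the 10 largest ratios had ratios of 36.6 to 46.6 and R1 means of 37.0 to 50.7 CPM. They lay at chr1:152986057-152986378, chr6:146123854-146124110, chr1:80221634-80221711 and chr5:126218069-126218342 on the minus strand and chr17:6840147-6840290 on the plus strand. In the chr6 peak animals differed most, with 92.0, 4.45 and 27.7 CPM. Burst peaks with 0 tags in all 21 EDL libraries numbered 20.

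At the limits on R1, R3 and R7 the nearest values lay close on both sides, and at those on the muscles they lay further apart. Just inside the limit at R1 were peaks with ratios of 3.00, 3.01 and 3.01, at chr6:96810751-96811007, chr17:10559678-10559938 and chr7:80796026-80796877, and just outside it were peaks at chr20:6205854-6206157, chr4:133285469-133285607 and chr7:138100562-138100913, all 3 at 3.00 when rounded. At R3 the nearest ratios were 1.497 inside and 1.502 outside, with the peaks at chr2:47268226-47268721, chr3:120726853-120727011 and chr6:25617660-25617937 inside and those at chr7:27240410-27240843, chr1:221179785-221179957 and chr17:37243459-37243549 outside. At R7 the peaks at chr1:198128808-198128910, chr3:55013129-55013185 and chr17:56109879-56109969 were inside at 1.497, 1.491 and 1.489, and those at chr16:40050630-40050953, chr11:65195131-65195402 and chr7:126228250-126228591 were outside at 1.504, 1.506 and 1.508. For the ratio of the muscles, the lowest inside were 0.396, 0.433 and 0.439 and the nearest outside 0.221, 0.169 and 0.0630. The highest inside were 3.71, 3.68 and 3.60 and the nearest outside 4.11, 4.12 and 4.67. One of the peaks left out by this limit, at chr10:109728780-109729144 on the minus strand, had a mean of 1080 CPM at R1 against 202 CPM in controls.

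Whether these peaks already moved while the muscle was unloaded was tested with edgeR's quasi-likelihood test over all peaks of the soleus table, calling a peak where the Benjamini-Hochberg adjusted p was under 0.05 and the fold exceeded 2.38 in either direction. At D1, 10 of the 575 burst peaks were called, 6 higher and 4 lower than control, beside 1.97% of all 9842 peaks tested (0.853% higher and 1.12% lower). At D3, 2 were called, both higher, beside 0.732% of all peaks (0.417% higher and 0.315% lower). At D7, 0 were called beside 0.122% of all peaks (0.0711% higher and 0.0508% lower), and 39 had an unadjusted p under 0.05 (6.78%, against 11.1% of all peaks). DESeq2 called 16, 10 and 12 of the burst peaks. Its shares over all peaks are not given here, so these counts have no background to be read against. Leaving out any 1 of the D1 or control libraries left 2 to 6 calls at D1, the fewest without D1 U25, and at D3 0 remained without any 1 control or without D3 U9 or U10. With lane as a term the counts were 3 at D1 and 0 at D3, and without TMM 6 and 0. The D7 libraries were all in lane 3 and the controls in lane 1, so no lane held both. Soleus D1 and D3 libraries in lanes 1 to 3 link them only indirectly, and the main soleus fit had no lane term. The control libraries were used to choose the peaks, which favours peaks that are low in them. All 575 passed the filter on low counts, 232 of them with a control mean under 1 CPM. The 50 with at most 3 tags in total over the 18 soleus libraries outside R1 could pass only through R1. How many others did so was not tested. The counts of calls are therefore a description of these peaks and not evidence that they stayed level in disuse.

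A few burst peaks had a second high phase in disuse. The soleus controls entered the choice of the peaks. Fold changes and adjusted p against control, in this and the following paragraphs on D1 and D3, therefore describe the named peaks and are no independent test. The largest called difference at D1 was that of the plus-strand peak at chr4:148782447-148782582. It had 4.67, 6.80 and 6.92 CPM in controls and 168, 143 and 84.6 CPM at D1, so the groups did not overlap, and rose by 4.67 ± 0.53 (SE) on the log2 scale (edgeR adjusted p = 0.000315). Its D1 mean of 132 CPM was above its R1 mean of 44.3 CPM. By D7 it held 24.1, 22.9 and 29.4 CPM, and fell by 2.77 ± 0.48 on the log2 scale from D1 to D7 (edgeR adjusted p = 0.00699).

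The plus-strand peak at chr3:111160175-111160323 had 2.56, 3.10 and 0.554 CPM in controls and 19.7, 19.8 and 21.7 CPM at D1. It rose by 3.43 ± 0.64 on the log2 scale (edgeR adjusted p = 0.00781), with 18.3 ± 9.45 CPM at D7 and 16.2 ± 9.17 at R1. The minus-strand peak at chr4:30545275-30547014 had 15.5, 20.04 and 9.55 CPM in controls and 89.0, 51.5 and 175 CPM at D1, and rose by 2.93 ± 0.72 (edgeR adjusted p = 0.0343). Its neighbour at chr4:30556594-30556951 rose by 2.86 ± 0.68 (edgeR adjusted p = 0.0290), from 57.0, 61.2 and 49.4 CPM to 226, 356 and 492 CPM, and is named after its values were seen. Both chr4 neighbours had lower means at D3, of 9.65 and 55.5 CPM, than at D7, where they were 125 and 418 CPM.

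Of the 4 called falls at D1, the 3 largest are given here. The minus-strand peak at chr7:80796026-80796877 had 110, 152 and 260 CPM in controls and 26.3, 35.0 and 44.7 at D1, fell by 2.07 ± 0.50 on the log2 scale (edgeR adjusted p = 0.0314), and had a mean of 526 CPM at R1. The chr2 peak at 257405662-257406117 had 54.3, 62.6 and 109 CPM in controls and 20.6, 10.8 and 22.0 at D1. It fell by 1.89 ± 0.49 (edgeR adjusted p = 0.0462). The minus-strand peak at chr12:6341640-6342061 had 21.8, 14.8 and 35.6 CPM in controls and 5.48, 7.25 and 8.66 at D1, fell by 1.51 ± 0.39 (edgeR adjusted p = 0.0447), and had 814, 271 and 352 CPM at R1. In each of these 3 peaks the D1 libraries lay below all controls.

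The 2 peaks called at D3 were at chr10:105645652-105645745 and chr15:104186720-104186954, both on the plus strand. The first had 6.64, 5.84 and 9.28 CPM in controls and 25.5, 15.0 and 23.4 at D3 (log2 fold change 1.46 ± 0.34, edgeR adjusted p = 0.0456). The second had 9.93, 11.6 and 12.2 CPM in controls and 30.4, 31.0 and 25.02 at D3 (log2 fold change 1.26 ± 0.26, edgeR adjusted p = 0.0292). Their R1 libraries, 17.1 to 35.6 CPM and 34.4 to 39.0 CPM, overlapped those of D3 in the first peak and not in the second.

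From D1 to D7, 2 of 575 burst peaks were called, 1 in each direction, beside 1.04% of all peaks (0.589% higher and 0.447% lower). The D1 and D7 libraries did not enter the choice of peaks. The filter on low counts read the R1 libraries as well, so this count is also a description. DESeq2 called 10, again without its share over all peaks. With edgeR, 1 was called without D7 U2 or without D7 U3. The peak called higher lay on the plus strand at chr19:24846576-24846700 and had 2.19, 2.37 and 2.13 CPM at D1 and 6.12, 8.64 and 10.1 CPM at D7 (log2 fold change 1.48 ± 0.26, edgeR adjusted p = 0.00681). Its levels at R1 were 20.5, 19.4 and 15.7 CPM. With lane as a term 1 was called.

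In all, 17 burst peaks had a ratio of at least 3 in 1 or more of D1, D3 and D7, and in 13 the highest disuse mean exceeded the R1 mean. Of these 13, 5 lay within chr6:75590188-75622987, on both strands, and were picked out after their values were seen. Their control means were 1.11 to 1.52 CPM, their D7 means 6.96 to 8.73 CPM and their R1 means 6.49 to 6.58 CPM. Levels this alike may come from reads shared between copies, which was not tested, so the 5 may not be separate sources. The highest ratio of all burst peaks at D7, 15.99, was that of the minus-strand peak at chr1:25735124-25735282, with 6.71, 4.91 and 35.4 CPM there and 5.32, 1.20 and 5.43 CPM at R1.

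Reloading was also compared in EDL, whose R1, D7 and R3 libraries did not enter the choice of the peaks, while the EDL controls did through the limit on the muscles. The filter on low counts left 304 burst peaks of 575 to test, among 9345 peaks of that muscle, so the 271 lowest in EDL are not covered. EDL R1 was in lane 4, D7 in lanes 3 and 6 and R3 in lanes 5 and 6. The comparisons of R1 with D7 and of R3 with R1 therefore also compare lanes, as does R1 with control. At R1 against control 0 of the 304 were called by edgeR, as were 0% of all peaks, and 25 burst peaks had an unadjusted p under 0.05 (8.22%, against 9.62% of all peaks). DESeq2 called 0. At R1 against D7 0 were called beside 0.0214% of all peaks. An unadjusted p under 0.05 was found for 19 burst peaks (6.25%, against 6.16% of all peaks). DESeq2 called 2, and its share over all peaks is not given here. At R3 against R1 0 were called beside 0.0107% of all peaks. Here 22 burst peaks had an unadjusted p under 0.05 (7.24%, against 5.67% of all peaks), and DESeq2 called 0. The median log2 fold changes of the 304 peaks were 0.03, −0.10 and −0.10, and those of all peaks 0.01, −0.02 and −0.01. The EDL R3 library of U4 stood apart, with 7.96% of all peaks at 3 or more times the EDL control mean against at most 3.68% in the other EDL libraries, and 1 of the 575 burst peaks among them.

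Over all 575 peaks the median ratio of EDL R1 to EDL control was 1.04, with the lowest at 0.499 and the highest at 3.81. By library, 6 burst peaks were at a ratio of 3 or more in the EDL of U18 (1.04%), 0 in U20 and 1 in U21 (0.174%). Of all peaks, 1.46%, 0.632% and 1.27% were so. In the soleus of the same rats the counts were 562, 410 and 420, beside 14.1%, 11.6% and 10.4% of all peaks. The choice of the peaks largely fixes these soleus counts. Every soleus R1 library was above every EDL library of all phases in 541 burst peaks (94.1%). The choice of the peaks bears on this count through the R1 mean and the limit on the muscles. The share over all peaks was not counted, so it is no result about the burst peaks. The 2 burst peaks with an EDL ratio of at least 3 at R1 were among those high in disuse. The chr3 peak at 111160175-111160323 had 3.05, 2.44 and 3.29 CPM in EDL controls and 29.7, 1.99 and 10.2 CPM at R1, so its EDL groups overlapped. The other, the chr4 peak at 30556594-30556951, had 49.5, 34.4 and 20.5 CPM in EDL controls and 306, 13.5 and 85.1 CPM at R1, which overlapped as well. In the chr12 peak with the highest soleus R1 level, EDL had 458, 242 and 238 CPM in controls and 1258, 263 and 447 CPM at R1, and these also overlapped.

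The muscles were compared within each disuse phase, whose libraries played no part in the choice. The filter on low counts read all 42 libraries, soleus R1 among them. It kept 571 burst peaks, against 304 where EDL was fitted alone. How many entered only through their soleus R1 level was not tested, so the counts of calls are a description. The limit on the control ratio of soleus to EDL keeps peaks that differ strongly between the control muscles out of the burst peaks. This favours a share under that of all peaks. Burst peaks were also low in disuse, with 45.6% under 1 CPM in soleus at D1 against 7.10% of all peaks. What part each has in the shares was not tested. At D1, 38 of 571 burst peaks tested were called, 10 higher and 28 lower in soleus, beside 12.4% of 9947 peaks (5.27% higher and 7.14% lower), and 16 were called without EDL D1 U25. At D3, 26 were called, 9 higher and 17 lower, beside 11.4% (4.92% higher and 6.52% lower). That count was 15 with lane as a term, 10 without EDL D3 U10 and 14 to 16 without any 1 soleus D3 library. At D7, 13 were called, 9 higher and 4 lower, beside 10.1% (4.49% higher and 5.6% lower). Over the 3 phases 64 burst peaks were called at least once and 3 in all 3. These counts were not made over all peaks and are no result about the burst peaks.

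Those 3 were at chr10:63677302-63677501 on the plus strand, chr1:177048570-177048731 on the plus strand and chr7:80796026-80796877 on the minus strand. The chr10 peak was higher in soleus, with 34.2, 62.6 and 53.8 CPM at D1 against 2.95, 1.19 and 10.8 CPM in EDL. Its log2 difference was 2.98 ± 0.44, 2.11 ± 0.40 and 3.24 ± 0.43 in the order of the phases, with edgeR adjusted p = 6.31e-06, 0.000202 and 2.32e-06. The chr1 peak was lower in soleus, with 1.10, 0.521 and 0.945 CPM at D1 against 3.54, 10.3 and 9.79 CPM, and its log2 difference was −3.69 ± 0.72, −3.30 ± 0.66 and −3.41 ± 0.74. The chr7 peak was lower in soleus by 3.05 ± 0.48 at D1, where all 3 soleus libraries (26.3, 35.0 and 44.7 CPM) were under all 3 EDL libraries (138, 231 and 308 CPM). At D3 and D7 it was lower by 1.41 ± 0.45 and 1.71 ± 0.46.

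Among the burst peaks with the highest R1 level, 3 were called at D1. The chr4 peak at 56710804-56711645 had 138, 145 and 223 CPM in soleus and 228, 639 and 873 CPM in EDL, a log2 difference of −2.14 ± 0.53 (edgeR adjusted p = 0.00321). The second chr8 peak, at 130416244-130417459, differed by −1.65 ± 0.43 (edgeR adjusted p = 0.00601), though the libraries overlapped, with 48.2, 43.4 and 49.7 CPM in soleus and 33.0, 170 and 128 CPM in EDL. The chr5 peak at 57028361-57029037 went the other way, with 51.1, 39.1 and 47.0 CPM in soleus against 11.8, 7.15 and 18.9 CPM in EDL, a log2 difference of 1.52 ± 0.38 (edgeR adjusted p = 0.00336). At D3 the chr12 peak with the highest R1 level was higher in soleus by 1.61 ± 0.49 (edgeR adjusted p = 0.0206), with 1231, 936 and 1401 CPM against 296, 213 and 461 CPM.

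The numerically largest fitted differences between the muscles were of peaks with few tags, where the fitted value is no bound. Of the 28 peaks called lower in soleus at D1, 2 had 0 tags in all 3 soleus libraries and 11 had an EDL mean of 10 CPM or more. Of the 17 called lower at D3, 4 had 0 tags in soleus. The plus-strand peak at chr2:198859131-198859278 had 0.183, 0 and 0 CPM in soleus and 0, 9.13 and 0.523 CPM in EDL at D1, and the peak on the minus strand at chr13:109818228-109819013 had 0.183, 0.0474 and 0.0788 CPM against 2.36, 8.74 and 0.448 CPM. At D3 the plus-strand peak at chr8:5734302-5734392 had 0 tags in soleus and 0.952, 2.22 and 0 CPM in EDL. On the side higher in soleus, the peak at chr6:30135548-30135782 on the minus strand had 0.790, 0.853 and 1.32 CPM at D7 and 0 tags in EDL. The peak at chr1:72423732-72424052 on the plus strand had 0.395, 1.60 and 2.91 CPM against 0, 0 and 0.0753 CPM. These 5 peaks reached R1 means of 10.6 to 26.5 CPM in soleus.

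The burst peaks were spread over the genome and partly arranged in runs. Their median width was 198 nt, against 207 nt for all peaks. Chromosome 6 held 42 (10.3% of its peaks) and chromosome 20 held 25 (8.71%), while chromosome 3 held 26 (2.69%) and X held 4 (1.76%). The 42 include both matching runs of 6 described below and the alike peaks within chr6:75590188-75622987. These may not be separate sources, and they also enter the counts of loci and neighbours that follow. Joining burst peaks of the same strand within 10000 nt gave 483 loci, of which 423 held 1 burst peak, 41 held 2, 15 held 3, 3 held 6 and 1 held 7. A burst peak had another burst peak within that distance on its strand in 152 cases (26.4%), against 3.00% of all peaks with such a neighbour. Same-strand neighbours within 10000 nt that were not burst peaks numbered 147. Their median ratio at R1 was 2.67 and 63 of them were at 3 or more (42.9%), against 1.17 and 6.98% over all peaks outside the set.

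The run of 7 lay on the plus strand at chr5:57028361-57039447 and held the peak with the fifth highest R1 level. Its summed level was 34.7, 44.6 and 43.1 CPM in controls and 3522, 897 and 1014 CPM at R1, and 49.7 CPM at R3. A run of 6 on the plus strand at chr4:56710804-56737743 went from 608, 328 and 561 CPM to 4795, 1868 and 1227 CPM, with 382 CPM at R3. In 63 burst peaks (10.96%) a same-strand peak within 10000 nt had at least 10 times their R1 level. That larger peak lay upstream in 53, had a ratio of at least 3 at R1 in 61 and was itself a burst peak in 26. A further 7 overlapped a peak of the other strand of at least 10 times their level, and 506 (88.0%) had neither.

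Peaks of the other strand within 500 nt or overlapping, with their midpoint on the upstream side, were found for 33 burst peaks (5.74%), against 6.94% of all peaks. Not all are arranged as divergent promoters, since a partner may enclose the burst peak or lie inside it. The minus-strand partner at chr4:118327343-118328951, for one, encloses the burst peak at chr4:118327783-118328697. In 10 of the 33 the partner was also a burst peak. The chr9 peak with the fourth highest R1 level was such a case. Its partner on the minus strand at chr9:61690548-61691119 had 28.3, 23.9 and 38.2 CPM in controls and 415, 161 and 138 CPM at R1, a ratio of 7.67. Another minus-strand peak that overlaps it, starting at 61691157, had 39.9 CPM in controls and 55.5 CPM at R1, a ratio of 1.38. Over the 25 partners outside the set the median ratio was 1.47, and 6 were at 3 or more.

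Some burst peaks may hold the same reads, since the authors let a read map to as many as 20 loci. The remaining runs of 6 lay on the minus strand at chr6:135045020-135049474 and chr6:135107489-135111913, and the steps between their successive starts differed by at most 44 nt. Their sums were 311, 68.8 and 67.2 CPM in the first and 314, 70.7 and 65.2 CPM in the second at R1, and 3.03 and 3.52 CPM in controls. The R1 means of matching peaks differed by at most 4.73%. A pair of plus-strand runs at chr14:86514133-86514588 and chr14:86645887-86646308 matched in the same way, within 18 nt and 6.20%. Single peaks at chr10:104679828-104680021 and chr1:241962578-241962633 held 962 and 964 tags over the 42 libraries, and those at chr11:46072985-46073145 and chr1:80140247-80140334 held 470 and 491, with every library within 10% or 2 tags. Levels and counts of such copies are uncertain, and each pair may stand for 1 source.

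The start used inside a burst peak was compared through its dominant CTSS, the position with the most tags, over peaks with at least 30 tags in both groups. The dominant CTSS in control and R1 soleus was the same in 222 of 341 burst peaks (65.1%), against 74.3% of all peaks. Between control and D7 it was the same in 78.0% of 300 burst peaks, against 80.8% of all peaks. Within groups, library pairs shared it in 68.9% of cases among controls and 73.6% among R1 libraries, while pairs of a control and an R1 library shared it in 55.02% (all peaks, 74.4%, 73.6% and 68.7%). Burst peaks are low in controls and the dominant position is less well determined there, and what part of the difference this makes was not tested. The dominant CTSS held a median of 25.4% of the R1 tags of a burst peak, and 80% of the tags lay within a median of 57 nt, against 22.7% and 51 nt for all peaks.

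The largest move among burst peaks with at least 100 tags in R1 and in the other soleus libraries was in the chr4 peak at 30545275-30547014, chosen by its size. It is measured from the other soleus libraries pooled. Its dominant CTSS was at position 30545768 in controls and at R1 and at 30546683 at D7 and in the pool, which is 915 nt apart and on the minus strand places R1 downstream. In the minus-strand peak at chr2:235257403 the dominant CTSS was at 235257747 in controls, R3 and R7 and at 235257495 at R1, 252 nt downstream, with 98, 133, 104 and 693 tags. The plus-strand peak at chr12:36640195 spread its tags so widely that the dominant position held 1.45% of them at R1.

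Tags next to the burst peaks were counted in windows free of deposited peaks, in CPM of all tags of a library. In the 500 nt upstream on the other strand, 540 windows held on average 0.0746 ± 0.00770 CPM (SD, n = 3) in control soleus and 0.350, 0.233 and 0.241 CPM in the 3 R1 libraries. At R3 the mean was 0.0958 ± 0.0146 and at R7 0.0812 ± 0.0280. In the 500 nt downstream on the same strand, 510 windows held 0.147 ± 0.0185 CPM in controls, 1.34, 0.566 and 0.613 CPM at R1 and 0.155 ± 0.0118 CPM at R3. The R1 libraries were above all other soleus libraries in both windows. In EDL at R1 the means were 0.0828 ± 0.0176 and 0.109 ± 0.0206 CPM, against 0.0579 ± 0.00265 and 0.0978 ± 0.0170 CPM in EDL controls. Around all peaks the soleus means went from 0.160 CPM in controls to 0.212 CPM at R1 upstream and from 0.215 to 0.318 CPM downstream. Downstream of all peaks the R1 libraries, at 0.297 to 0.362 CPM, were also above all other soleus libraries, of which R3 U4 was the highest at 0.283 CPM. Upstream of all peaks they were not, with 0.201 CPM in R1 U21 and 0.232 CPM in D7 U2. These windows share libraries with the choice of the peaks and their values are a description.

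**Figure D5:**
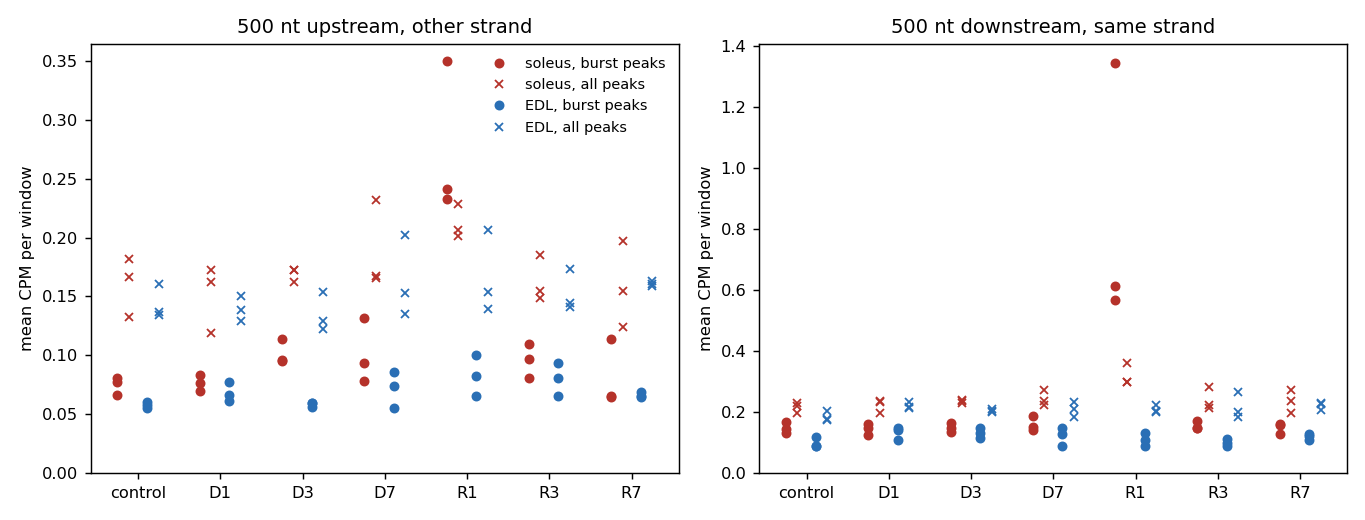
Mean CPM per window in the 500 nt upstream of the peaks on the other strand (left) and 500 nt downstream on the same strand (right), by phase; filled points are burst peaks and crosses all peaks, red soleus and blue EDL, 1 mark per library. In soleus the 3 R1 points of the burst peaks (0.233 to 0.350 CPM and 0.566 to 1.34 CPM) lie above those of every other phase, and the EDL R1 points (0.0653 to 0.1005 CPM and 0.0893 to 0.130 CPM) do not stand out in this way. On the right the soleus R1 crosses also lie above the soleus crosses of every other phase.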

How the data were processed

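The authors made nAnT-iCAGE libraries, trimmed the reads, mapped them to Rnor_6.0 and aggregated the alignments to CTSS. The paper names STAR, with reads allowed at up to 20 loci, and the submitters' processing notes list Trimmomatic 0.38, BWA and HISAT2, so the aligner behind the files is uncertain. The counts are raw tags per CTSS and per peak as the authors deposited them, and the CTSS counts summed to the peak counts in every library. The authors' 42 normalized columns were not used. Every peak reaches 10 TPM in some library of that table, so weaker TSSs are not covered.

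CPM was raw counts over the column sum of the peak table. Libraries held 1696341 to 22116123 peak tags, which leaves low peaks imprecise. Intervals between animals rest on 3 per group. Burst peaks and the rule for those named (the 10 highest R1 levels, the 10 largest ratios, the 3 largest calls per direction, and those nearest each limit) were chosen with earlier results of these data known. The main test was the quasi-likelihood F-test of edgeR 4.0.16 under R 4.3.3, after its low-count filter (filterByExpr) and TMM scaling, with p adjusted over all peaks. The 7 groups of a muscle shared 1 fit, as did all 14 groups for soleus against EDL. The median biological coefficient of variation was 0.284 in soleus, 0.302 in EDL and 0.292 over both. DESeq2 1.42.0, the tool of the paper, served as an alternative. The edgeR step was tested on simulated data. For EDL R1 against control it missed the limit first set on wrong calls, and that limit was loosened after this was seen, so the share of wrong calls can exceed the adjusted threshold. Other steps used Python 3.11.15.

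Animal numbers in the labels mark both muscles of 1 rat. Subtracting group means, the 2 libraries of each rat correlated with r from −0.336 to 0.586 (median 0.272) over 9238 peaks, over 0.1 in 15 of 21 animals. Other alternatives were the library total, the filter, the lane as a term, the value added to the means, the median, and leaving out each library. Lists of genes and markers could not be applied, since the files do not pair peaks with genes.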

Additional observations from a re-analysis of the deposited data

How the results depend on the processing

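Of 132 alternatives computed for 12 results, 101 stayed within 1.5 times the main count (or, for the shared dominant CTSS, within its 95% Wilson interval). They were uneven: for soleus D1 against control 9 moved and 2 stayed, and for D3 8 moved and 3 stayed. In the EDL comparisons and for soleus D7 against control, those that stayed were 0 beside 0. The rule found 446 to 589 peaks under the other library totals, 544 and 569 with 0.5 or 2 CPM added, 492 with group medians, and 442 to 652 with a library left out, the extremes being without R1 U18 and without R1 U21. The peaks shared with the 575 numbered 418 to 564, 493 and 488, 441, and 434 to 575 in the same order, so the set changed more than its size. DESeq2 called 2 burst peaks for EDL R1 against D7, and 16, 10, 12 and 10 for soleus D1, D3 and D7 against control and D7 against D1. Its shares over all peaks are not given here. Library totals without TMM gave 6 at D1 and 0 at D3. With lane as a term over all 42 libraries the counts were 3 at D1, 0 at D3, 1 for D7 against D1, and 15 for the muscles at D3, against 10, 2, 2 and 26. All 42 libraries in 1 fit without lane, added after seeing the data, gave 13 at D1, 3 at D3, 1 at D7 and 2 for D7 against D1. For soleus this fit uses the same libraries as the fit with lane. The cause of these shifts was not tested. With a library left out the counts ran from 2 to 6 at D1, 0 to 3 at D3, 1 to 2 for D7 against D1, and 16 to 47, 10 to 27 and 10 to 14 for the muscles at D1, D3 and D7; they were 0 throughout for soleus D7 and for the 3 EDL comparisons. With the animal as replicate block, 36, 24 and 16 burst peaks were called between the muscles at D1, D3 and D7, and no count moved by over 1.5 times. The dominant CTSS of control and R1 was the same in 55.02% of library pairs, against 65.1% with libraries pooled. In EDL 271 burst peaks fell under the filter on low counts. The EDL control mean was under 1 CPM in 49.6% of the burst peaks, against 9.34% of all peaks. The choice of the peaks favours low soleus controls and ties the EDL controls to them through the limit on the muscles, which favours such a share. What part depth has in it was not tested.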
